A study of Homo sapiens with 9 samples.

Results

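The genes described here are 3 pseudogene features that lie inside introns of larger genes, together with those host genes: FBXW4P1 in BCR, TNRC18P1 in TBC1D9 and CHP1P2 in IGF2R. They make up 6 of the 46846 features in the deposited expression table. The 3 pseudogene features were chosen by their normalised reads, and those of their hosts, in these 9 libraries, so the drug differences of features and hosts alike are a description and carry no test.

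Cells of the line MDA-MB-231, from a human breast cancer of the triple-negative type, were treated with compounds that act on splicing. There were 3 libraries of cells given indisulam (3.3 µM, 12 h), 3 of cells given pladienolide B (10 nM, 6 h) and 3 of cells given DMSO (labelled 12 h). All came from this 1 line, and library preparation selected mRNA. Nothing in the labels tells whether the libraries of a group are separate cultures, and a p-value here stands for no more than the spread among the libraries.

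A processed pseudogene is a copy of a mature mRNA that was reverse transcribed and inserted elsewhere in the genome, so it lacks the introns of its parent and often carries the remains of a poly(A) tail. When such a copy lies in an intron in the orientation of its host, it is transcribed as a piece of the host's pre-mRNA and is normally removed with the intron. Indisulam is a sulfonamide that glues RBM39, a splicing factor, to the ubiquitin ligase substrate receptor DCAF15, after which RBM39 is degraded. The macrolide pladienolide B binds the SF3B1 subunit of SF3b, the part of the U2 snRNP that recognises the branch site of introns.

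The libraries held 59312100 to 83910831 reads. The deposited values are reads divided by a DESeq2 size factor, called normalised reads below, and 3 reads correspond to 2.48 to 3.87 normalised reads. Summed over all features, the pladienolide B libraries held 82366487 to 87510746 normalised reads, the indisulam libraries 62895851 to 63690595 and the DMSO libraries 60435009 to 61583500. VIM, CD44, AXL and CAV1, which are high in mesenchymal-like breast cancer lines, lay between 47307 and 194494 normalised reads. ZEB1 (4581 to 7604) and EGFR (4966 to 11119), looked at for the same reason, lay lower. Genes of luminal epithelium were mixed. The hormone receptor genes ESR1 and PGR did not exceed 2.04 in any library, and CDH1 lay at 54.7 to 117. KRT8 (44748 to 83661) and KRT18 (37250 to 55282) were high, and EPCAM lay at 961 to 1895. Fewer cells of a kind and less RNA per cell cannot be told apart in such bulk libraries.

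All 3 features lie on the strand of their host, in the annotation GENCODE v29 of the genome build hg38 (GRCh38). FBXW4P1 (GSHG0028453) spans chr22:23262767-23264987 on the plus strand, 2221 bases within intron 4 of the transcript BCR-201. That intron measures 6867 bases, and the feature begins 1226 bases after the upstream exon. TNRC18P1 (GSHG0033820) spans chr4:140641191-140643080 on the minus strand, 1890 bases within intron 13 of TBC1D9-201. This intron is longer, at 17668 bases, and 14016 of them precede the feature. CHP1P2 (GSHG0037379) spans chr6:160093082-160096212 on the plus strand, 3131 bases within intron 44 of IGF2R-201. It fills 49.4% of an intron of 6335 bases and ends 226 bases before the next exon. None of the 3 spans overlaps an exon of a gene outside the pseudogene class. GENCODE types FBXW4P1 and TNRC18P1 as processed pseudogenes and CHP1P2 as a transcribed processed pseudogene. For TNRC18P1 the deposited span and the GENCODE model (chr4:140641840-140645489) share only 1241 bases, so the name was kept from the table.

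**Figure D1:**
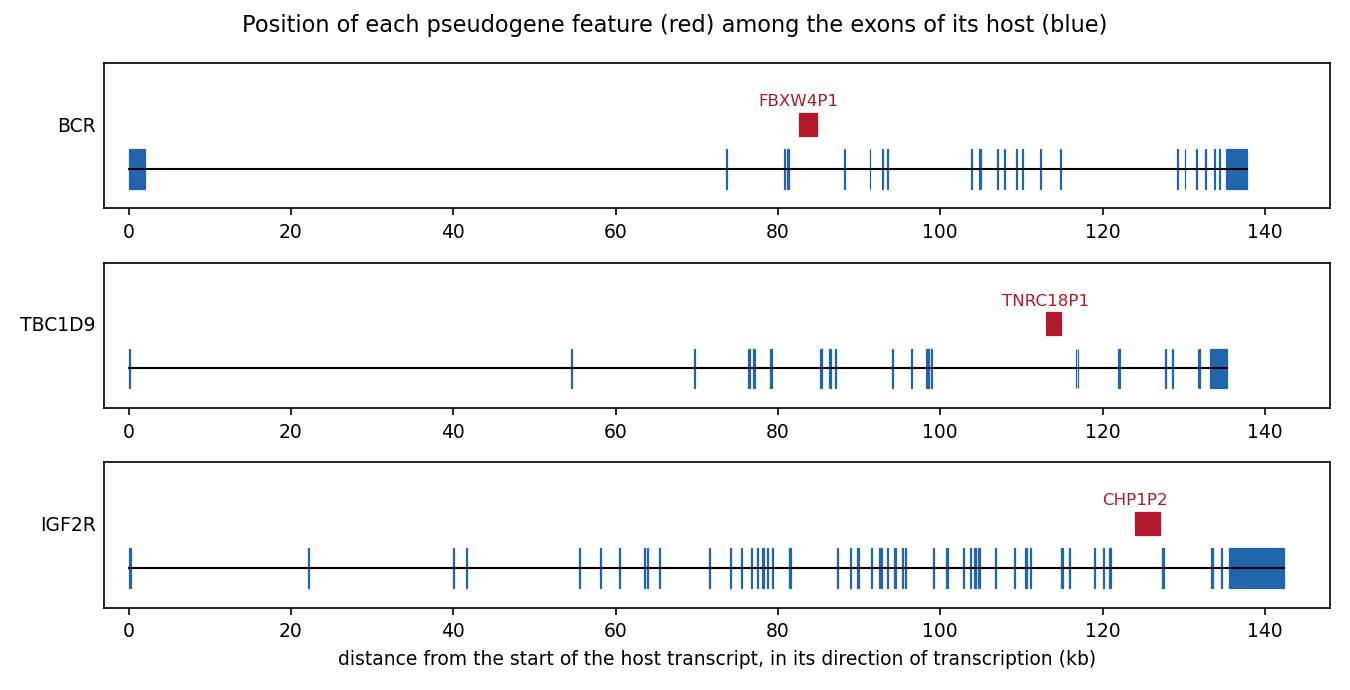
Position of the 3 pseudogene features (red) in their host genes, drawn to scale in kb from the start of the host transcript in its direction of transcription, with exons of BCR-201, TBC1D9-201 and IGF2R-201 in blue. Each red box lies between exons: FBXW4P1 in intron 4 of BCR, TNRC18P1 in intron 13 of TBC1D9 and CHP1P2 in intron 44 of IGF2R.

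The sequences illustrate differences between each copy and the mRNA of its parent. Windows of 60 bases compare each pseudogene with the matching stretch of its parent's mRNA, from the GENCODE v29 transcripts, 5′ to 3′ on the strand of the transcript. Capitals mark the bases that differ. The windows lie at chr22:23263208-23263267 (plus strand), chr4:140642986-140643045 (minus strand) and chr6:160093431-160093490 (plus strand) of GRCh38.
FBXW4P1: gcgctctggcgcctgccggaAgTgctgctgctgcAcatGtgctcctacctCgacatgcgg
FBXW4: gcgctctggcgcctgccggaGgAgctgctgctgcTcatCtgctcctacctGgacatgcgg
TNRC18P1: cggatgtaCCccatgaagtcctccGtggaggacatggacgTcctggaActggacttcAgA
TNRC18: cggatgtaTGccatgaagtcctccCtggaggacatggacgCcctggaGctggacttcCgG
CHP1P2: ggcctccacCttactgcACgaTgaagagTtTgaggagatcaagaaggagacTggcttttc
CHP1: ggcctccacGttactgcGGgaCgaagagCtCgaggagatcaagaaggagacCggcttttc

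FBXW4P1 differs from its parent at 5 bases of the window, and TNRC18P1 and CHP1P2 each differ at 7. Each window was picked, within the coding part and the deposited span, for a share of differences closest to that of the segment below. These numbers therefore follow from the choice and add nothing to the identities. In the best aligned segment, FBXW4P1 was 92.1% identical to FBXW4-201 across 2245 columns, and its longest stretch without a difference was 68 bases. TNRC18P1 was 88.2% identical to TNRC18-203 across 3569 columns, and CHP1P2 was 88.3% identical to CHP1-201 across 1275 columns. For TNRC18P1 these columns describe the GENCODE model, most of which lies outside the deposited span. Inside that span 1124 bases aligned, at 89.9% identity, and part of the span lies outside the model. The CHP1P2 segment is a part of the copy, of which 81.4% aligned to CHP1-201 in any segment. In the segments of TNRC18P1 and CHP1P2, the longest identical stretch was 43 bases. Whether that stretch lies in the deposited span of TNRC18P1 was not tested. Reads that fall in such stretches could be placed at either copy, and no label or header says how the authors handled them.

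A poly(A) signal hexamer stands near the 3′ end of the models of FBXW4P1 and CHP1P2, and in FBXW4P1 a run of A follows it. In the windows of 30 bases below, capitals mark the hexamer AATAAA and that run of A.
FBXW4P1, chr22:23264966-23264995, plus strand: AATAAAgcttgattgttcacagAAAAAAAA
CHP1P2, chr6:160096183-160096212, plus strand: tcttcagtccatcAATAAAtactcgtggtt

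In FBXW4P1 the hexamer is followed by a run of A, all of which lies just beyond the end of the deposited span. In CHP1P2 the hexamer stands close to the end of the model, with no run of A inside it. Searched on the transcript strand, AATAAA occurred in the last 60 bases of 315 of 10666 processed pseudogene transcripts in GENCODE v29 (2.95%). A match describes these letters and was not tested as a site that is used.

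Shares over all features give the background for the counts that follow. Of the 16846 features with a mean of at least 10 normalised reads, 27.4% had every indisulam library above every DMSO library and 21.0% had every one below. For pladienolide B against DMSO these shares were 35.5% and 36.3%, and for pladienolide B against indisulam 35.6% and 36.2%. By limma at an adjusted p under 0.05, 26.9% changed with indisulam against DMSO (14.5% higher, 12.4% lower) and 69.8% with pladienolide B against DMSO (34.3% higher, 35.5% lower). Between pladienolide B and indisulam 70.3% differed (34.7% higher, 35.6% lower). A change or a lack of overlap in the pladienolide B comparisons was therefore common.

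FBXW4P1, a copy of the F-box protein gene FBXW4, was far higher with pladienolide B than in any other library and moderately higher with indisulam. It had 67.8, 68.9 and 98.2 normalised reads with indisulam, 1680, 1719 and 1494 with pladienolide B, and 11.7, 17.3 and 44.8 in DMSO. Every indisulam library lay above every DMSO library, every pladienolide B library lay above both, and DMSO replicate 3 stood above the other DMSO libraries. Mean values were 78.3 ± 17.3 with indisulam, 1631 ± 120 with pladienolide B and 24.6 ± 17.7 in DMSO (SD, n = 3 each). The difference on the log2(value + 1) scale was 1.83 for indisulam against DMSO, 6.21 for pladienolide B against DMSO and 4.38 for pladienolide B against indisulam. Without DMSO replicate 3 the differences from DMSO were 2.36 and 6.74.

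TNRC18P1, a copy of the chromatin-associated gene TNRC18, had the same order of groups at a lower level. Its values were 10.1, 18.2 and 24.0 normalised reads with indisulam, 268, 276 and 331 with pladienolide B, and 3.35, 3.30 and 1.02 in DMSO. The groups did not overlap, and the DMSO values rest on 4, 4 and 1 reads, at about the level of 3 reads that a count of 0 would allow. Group means were 17.5 ± 7.01 with indisulam, 292 ± 34.4 with pladienolide B and 2.56 ± 1.33 in DMSO (SD, n = 3 each). On the log2(value + 1) scale TNRC18P1 differed by 2.38 for indisulam against DMSO, 6.44 for pladienolide B against DMSO and 4.06 for pladienolide B against indisulam. With 5 added in place of 1 the differences from DMSO were 1.54 and 5.30, since the DMSO values are so low. With a DMSO mean under 10 normalised reads, TNRC18P1 passed the minimum of 10 over the 9 libraries through the treated ones.

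CHP1P2, a copy of CHP1, which encodes a calcineurin B homologous protein, was the feature in which indisulam gave the highest values. It had 211, 209 and 214 normalised reads with indisulam, 169, 135 and 150 with pladienolide B, and 74.6, 78.4 and 37.7 in DMSO. The indisulam libraries lay close together and above all pladienolide B libraries, which in turn lay above all DMSO libraries. Mean values were 211 ± 2.73 with indisulam, 151 ± 16.6 with pladienolide B and 63.6 ± 22.5 in DMSO (SD, n = 3 each). The log2 difference from DMSO was 1.79 for indisulam and 1.30 for pladienolide B, and pladienolide B against indisulam gave −0.49. Here DMSO replicate 3 was the lowest library, and without it the differences from DMSO were 1.45 and 0.97. With equal library totals the pladienolide B difference was 0.84.

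Pooled reads give the counting error of these differences, which leaves out the spread among libraries. For FBXW4P1, 236 reads with indisulam against 79 in DMSO correspond to a 3.33-fold higher rate (95% exact interval 2.57 to 4.36), and 4185 reads with pladienolide B correspond to a 70.1-fold higher rate (56.1 to 88.7). For TNRC18P1, 52 reads with indisulam against 9 in DMSO correspond to a 6.45-fold higher rate (3.15 to 14.9). With pladienolide B its 742 reads correspond to a 109-fold higher rate (57.1 to 239). For CHP1P2 the same ratio was 3.24 for indisulam (2.77 to 3.79, 641 reads against 221) and 2.34 for pladienolide B (1.98 to 2.77, 391 reads). The intervals cover counting error only, and the interval of TNRC18P1 is the widest because DMSO gave so few reads. They are no test, since the features were chosen on these values. They are also too narrow for a difference between treatments. Averaged over all features tested, replicates differed by more than counting error (chi-square per feature 8.63 to 27.5). This average does not give the spread of a single feature. The DMSO reads were 14, 21 and 44 for FBXW4P1 and 89, 95 and 37 for CHP1P2. Reads lay closer together for CHP1P2 with indisulam (230, 206 and 205), and TNRC18P1 in DMSO had 4, 4 and 1.

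**Figure D2:**
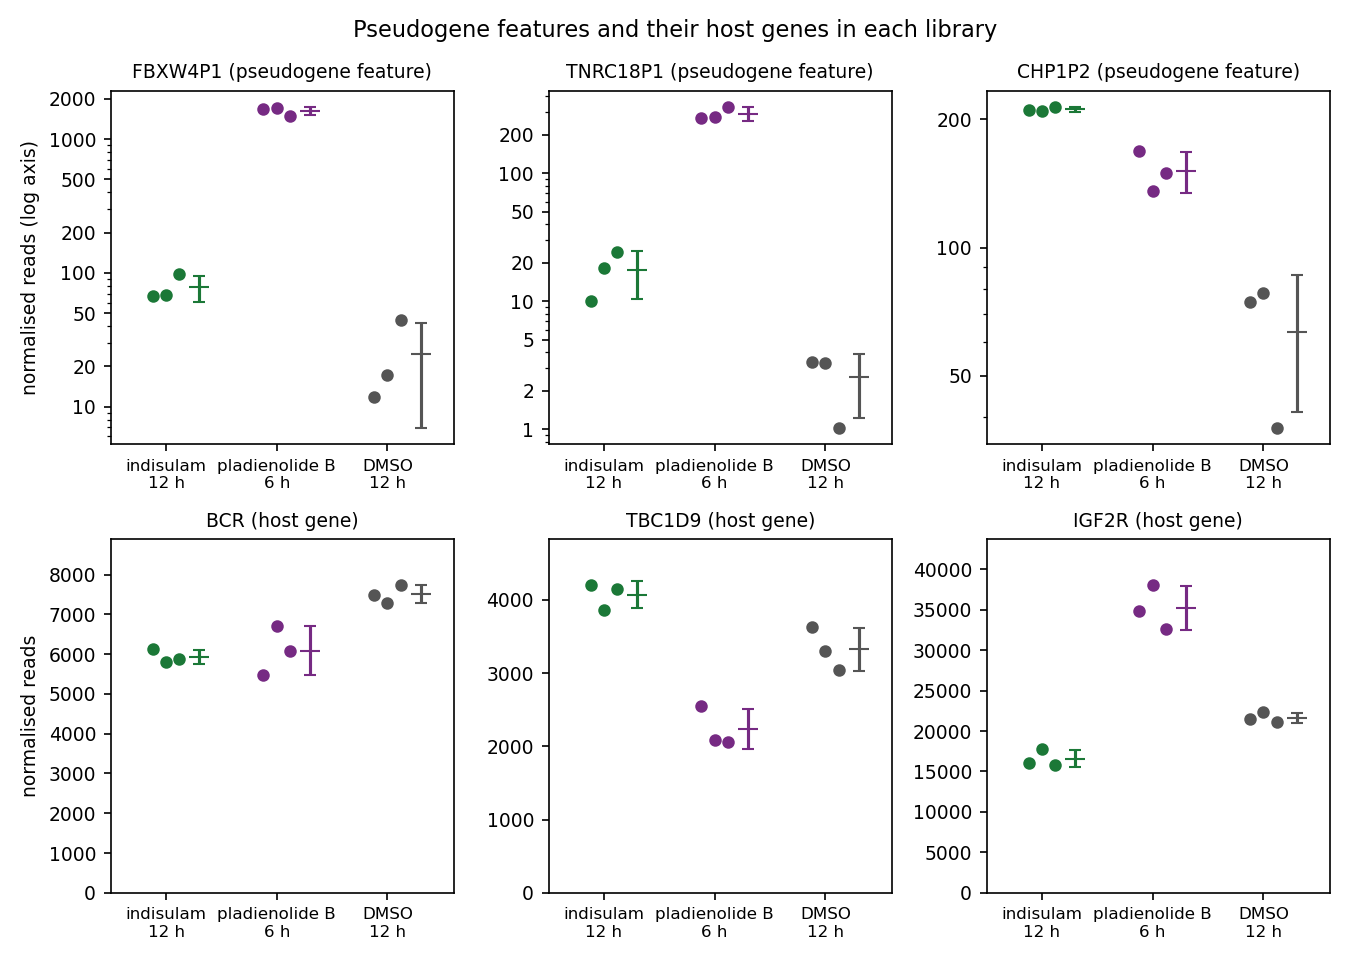
Normalised reads of the 3 pseudogene features (upper row, log axes) and of their hosts (lower row, linear axes from 0) in the 3 indisulam, 3 pladienolide B and 3 DMSO libraries; points are libraries, and the bar beside them is the mean with 1 SD. FBXW4P1 and TNRC18P1 are highest with pladienolide B (means 1631 and 292) and CHP1P2 is highest with indisulam (mean 211), while the hosts follow other orders.

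The hosts followed other orders of groups than their features. BCR encodes a GTPase regulator with a kinase domain, best known from its fusion with ABL1 in leukaemia, and spans chr22:23180210-23318037. It had 6126, 5805 and 5867 normalised reads with indisulam, 5481, 6701 and 6080 with pladienolide B, and 7497, 7285 and 7736 in DMSO. Every treated library lay below every DMSO library, and the drug groups overlapped. BCR differed from DMSO by a log2 change of −0.34 ± 0.07 (SE from the limma fit) with indisulam and −0.31 ± 0.07 with pladienolide B. Pladienolide B against indisulam gave 0.03 ± 0.07. FBXW4P1 was higher in the same libraries in which its host was lower.

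TBC1D9 encodes a TBC domain protein of the Rab GTPase-activating family and spans chr4:140620782-140756385. It had 4202, 3858 and 4147 normalised reads with indisulam, 2550, 2088 and 2059 with pladienolide B, and 3627, 3302 and 3047 in DMSO. The pladienolide B libraries were the lowest, the indisulam libraries were the highest, and no groups overlapped. TBC1D9 differed by −0.58 ± 0.09 for pladienolide B against DMSO and by −0.87 ± 0.09 for pladienolide B against indisulam. Indisulam against DMSO gave 0.29 ± 0.09, and 0.23 to 0.36 when 1 library at a time was left out. TNRC18P1 was higher with pladienolide B while TBC1D9 was lower.

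IGF2R encodes the cation-independent mannose 6-phosphate receptor, which carries lysosomal enzymes and takes up IGF2, and spans chr6:159969082-160111504. It had 16102, 17753 and 15842 normalised reads with indisulam, 34858, 38050 and 32678 with pladienolide B, and 21534, 22301 and 21072 in DMSO. All indisulam libraries lay below, and all pladienolide B libraries above, the DMSO libraries. IGF2R differed from DMSO by −0.39 ± 0.06 with indisulam and by 0.70 ± 0.06 with pladienolide B, and pladienolide B against indisulam gave 1.09 ± 0.06. CHP1P2 was higher with both drugs, and in the order opposite to that of its host between them.

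For pladienolide B the drug and the shorter time cannot be told apart, since the DMSO libraries are labelled 12 h. The host values also depend on scaling there: the median change of all features against DMSO is −0.01 as deposited, −0.12 with TMM scaling and −0.48 with equal library totals. With equal totals, pladienolide B against DMSO gave −0.78 for BCR, −1.05 for TBC1D9 and 0.23 for IGF2R, each in the same direction as before. BCR then differed by −0.39 between pladienolide B and indisulam.

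Set against the host in the same library, each feature stood at a higher ratio with either drug. FBXW4P1 amounted to 1.11%, 1.19% and 1.67% of BCR with indisulam, 30.6%, 25.7% and 24.6% with pladienolide B, and 0.156%, 0.238% and 0.580% in DMSO. TNRC18P1 amounted to 0.240%, 0.473% and 0.579% of TBC1D9 with indisulam, 10.5%, 13.2% and 16.1% with pladienolide B, and 0.0924%, 0.100% and 0.0334% in DMSO. CHP1P2 amounted to 1.31%, 1.18% and 1.35% of IGF2R with indisulam, 0.484%, 0.356% and 0.458% with pladienolide B, and 0.346%, 0.352% and 0.179% in DMSO. No groups overlapped in any of the 3 ratios, and the pladienolide B and DMSO libraries nearly met for CHP1P2.

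With 1 added to each value, the log2 feature over host ratio with indisulam was higher than in DMSO by 2.17 for FBXW4P1, 2.09 for TNRC18P1 and 2.17 for CHP1P2. These values depend on the settings: with 5 added the ratio of TNRC18P1 differed by 1.24, and without DMSO replicate 3 that of FBXW4P1 by 2.67. With pladienolide B the ratios differed from DMSO by 6.51, 7.02 and 0.60, so that FBXW4P1 and TNRC18P1 stood far apart from CHP1P2. Pladienolide B against indisulam gave 4.35 for FBXW4P1, 4.93 for TNRC18P1 and −1.57 for CHP1P2. Without DMSO replicate 3, the pladienolide B difference of CHP1P2 was 0.29.

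**Figure D3:**
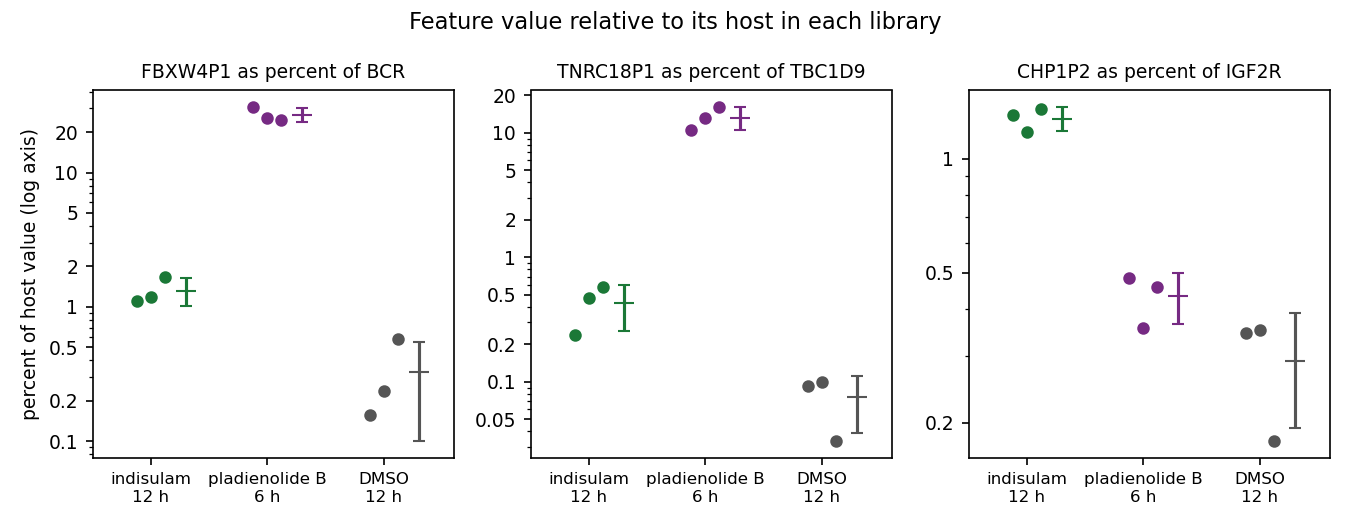
Each feature's value as a percent of its host's value in the same library (log axes) for the 3 indisulam, 3 pladienolide B and 3 DMSO libraries, with the mean and 1 SD beside the points. FBXW4P1 and TNRC18P1 reach 24.6% to 30.6% and 10.5% to 16.1% of their hosts with pladienolide B, and CHP1P2 has its highest ratio, 1.18% to 1.35%, with indisulam.

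Per kb of its span, FBXW4P1 had 35.3 ± 7.77 normalised reads with indisulam, 734 ± 54.1 with pladienolide B and 11.1 ± 7.98 in DMSO (SD, n = 3 each). As a percentage of BCR per kb of exon this was 7.38% with indisulam, 150% with pladienolide B and 1.81% in DMSO. These percentages depend on the exon length taken for the host, here the union over all annotated transcripts. A single transcript is shorter and gives lower percentages. TNRC18P1 stood at 1.28% of TBC1D9 per kb of exon with indisulam, 39.3% with pladienolide B and 0.223% in DMSO. CHP1P2 stood at 7.29% of IGF2R with indisulam, 2.46% with pladienolide B and 1.67% in DMSO. That union covers 12389 bases for BCR, 5603 for TBC1D9 and 17843 for IGF2R.

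By their group means the parent genes followed other orders than their copies. Some changes went the same way but were smaller, in TNRC18 with indisulam and in FBXW4 and CHP1 with pladienolide B. FBXW4, which encodes an F-box and WD40 repeat protein, averaged 1141 ± 120 normalised reads with indisulam, 1452 ± 235 with pladienolide B and 1188 ± 91.3 in DMSO (SD, n = 3 each). It did not pass with indisulam (−0.06 ± 0.12, limma adjusted p = 0.747) and rose slightly with pladienolide B (0.28 ± 0.12, adjusted p = 0.047), where the groups overlapped and the direction turned to −0.19 with equal library totals. That call also went when a DMSO library was left out (adjusted p = 0.0768, 0.0523 and 0.167 without replicates 1, 2 and 3). The same held for indisulam replicate 3 (0.0594) and for pladienolide B replicates 1 (0.0828) and 2 (0.207). FBXW4P1, at 1631 normalised reads with pladienolide B, stood near its parent in read number there, against 24.6 for the copy and 1188 for the parent in DMSO.

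TNRC18 averaged 24345 ± 1630 normalised reads with indisulam, 7007 ± 353 with pladienolide B and 19885 ± 827 in DMSO. It rose with indisulam (0.29 ± 0.06, adjusted p = 0.00384) and fell with pladienolide B (−1.50 ± 0.06, adjusted p = 1.86e-10), the direction opposite to that of TNRC18P1. CHP1 averaged 7653 ± 120 normalised reads with indisulam, 11520 ± 930 with pladienolide B and 7676 ± 119 in DMSO. It changed by 0.00 ± 0.06 with indisulam (adjusted p = 0.967), where CHP1P2 had its highest values, and rose with pladienolide B (0.58 ± 0.06, adjusted p = 1.32e-06), a call that equal library totals ended (0.11, adjusted p = 0.0803). Whether reads of parents were counted at the copies was not tested.

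Other features inside the hosts were few and mostly without reads. In IGF2R, the unnamed feature GSHG0037378 (chr6:160034819-160036746) lies in intron 10 and overlaps a transcript that GENCODE annotates as a retained intron. It had 57.7, 47.6 and 47.0 normalised reads with indisulam, 38.1, 28.4 and 25.4 with pladienolide B, and 21.8, 29.7 and 32.6 in DMSO. The indisulam libraries lay above all others, and the pladienolide B and DMSO libraries overlapped. Its change with indisulam against DMSO was 0.85 ± 0.30 (limma adjusted p = 0.0491), and this call was lost whichever indisulam or DMSO library was left out (change 0.68 to 0.96). It was also lost with the replicate block (adjusted p = 0.0515), TMM (0.0638), equal totals (0.063), edgeR (0.062), a pseudocount of 0.5 (0.051) and no filter (0.115). Pladienolide B against DMSO gave 0.12 ± 0.30 (adjusted p = 0.729) and against indisulam −0.73 ± 0.30 (adjusted p = 0.0418), a call lost with the replicate block (0.0543), DESeq2 (0.0638) and no filter (0.0944), and without DMSO replicate 2, any 1 indisulam library, or pladienolide B replicate 2 or 3 (−0.78 to −0.61). AIRN, the antisense RNA known for silencing the Igf2r gene in mice, and GSHG0028922 in BCR had 0 reads in all 9 libraries, which allows up to 3 reads in each. GSHG0037376 had 6 reads in 1 DMSO library and GSHG0037377 had 1 read in 1 pladienolide B library.

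The features whose log2 values followed each pseudogene most closely over the 9 libraries were taken among 12428 features with a symbol and a mean of at least 50. For FBXW4P1 they were HERPUD2-AS1 (Pearson r = 0.994), SNORD67 (0.993) and CTTN (0.993), and for TNRC18P1 they were GNA13 (0.994), NDUFA9 (0.994) and UFD1 (0.994). For CHP1P2 they were YPEL5 (0.975), PRORSD1P (0.975) and DIO2 (0.957). The same measure between feature and host was −0.58 for FBXW4P1 and BCR, −0.71 for TNRC18P1 and TBC1D9, and −0.09 in CHP1P2 and IGF2R. These values describe the order of 3 treatment groups and carry no test. SNORD67, a small nucleolar RNA, had means of 50.5 with indisulam, 220 with pladienolide B and 26.1 in DMSO. YPEL5 had 4569, 4113 and 3238 in the same order of groups, so its differences were much smaller than those of CHP1P2. Likewise CTTN had 21421, 28181 and 18750, and GNA13 had 10082, 11283 and 9563. Their differences were far smaller than those of FBXW4P1 and TNRC18P1, as the correlation does not measure size.

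To see where the 3 pairs stand among others, all other features of a pseudogene type were taken that lie within the deposited span of a named feature. They overlap no exon of a gene outside the pseudogene class. The smallest such named feature is called the host. Whether these features lie in an annotated intron of that host was not checked, unlike for the members. There were 85, of which 49 fell below a mean of 10, 2 had a host below it, and 34 were tested with their 32 hosts. Only 23 of the 34 are of a processed type, as the members are. The others are unprocessed or unitary pseudogenes, so the 34 are not all like the members. With indisulam 5 of the 34 features rose and 5 fell, with a median log2 change of 0.15 against 0.05 over all features tested, and 4 of the 32 hosts rose and 7 fell. With pladienolide B 17 of the 34 features rose and 1 fell, with a median of 0.58 against −0.01, and 9 hosts rose and 14 fell. Over all features tested 14.5% rose and 12.4% fell with indisulam, and 34.3% rose and 35.5% fell with pladienolide B. Of these 34 features, 4 had a DMSO mean under 10, and all 4 rose with pladienolide B, having passed the minimum through treated libraries. Leaving out 1 library at a time gave 2 to 7 features that rose with indisulam, the lowest of these without indisulam replicate 3, and 16 to 18 with pladienolide B.

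Against these other pairs the members stood at or near the top in ratio, apart from CHP1P2 with pladienolide B. With indisulam the log2 feature over host ratio of the other 34 pairs differed from DMSO by −1.09 to 1.72, below all 3 members, which were chosen on these same values. With pladienolide B the others ranged from −0.87 to 3.68, below FBXW4P1 and TNRC18P1, while 19 of the 34 lay above CHP1P2. A higher ratio with pladienolide B was found in 29 of the 34 pairs, with a median of 0.92, against 21 pairs and a median of 0.23 with indisulam. The 29 pairs and the median of 0.92 include the 4 features that passed the minimum through treated libraries. A ratio is also higher where the host alone was lower. These counts have no matching share over all features and are a description. Among the pairs on 1 strand, as the members are, 11 of 22 features rose with pladienolide B, and among pairs on opposite strands 6 of 9 rose. The share over all features tested was 34.3%. The 4 features that passed the minimum through treated libraries are all on the strand of their host and are counted in the 11, so the strands are not compared on equal terms.

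**Figure D4:**
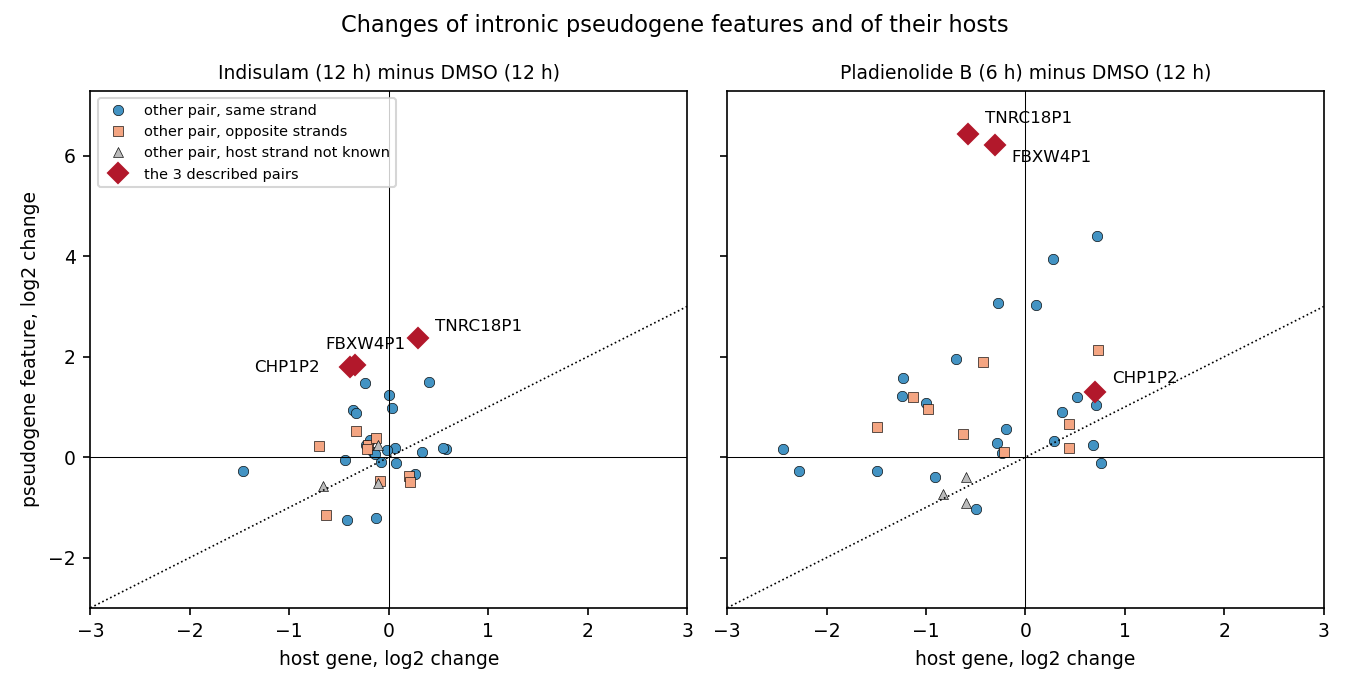
Log2 change against DMSO of pseudogene features inside the deposited span of a host (vertical axis) and of their hosts (horizontal axis). Indisulam is on the left and pladienolide B on the right. Each point is 1 pair, coloured by relative strand, the diamonds are the 3 described pairs, and the dotted line marks equal change. With pladienolide B, FBXW4P1 (6.21) and TNRC18P1 (6.44) lie above all 34 other pairs and CHP1P2 (1.30) lies among them.

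The other pairs with the highest ratio differences with indisulam were FTH1P3 in PPM1G (1.72), CHORDC1P4 in LPIN2 (1.30) and TYRO3P in ETFA (1.23), and with pladienolide B they were TYRO3P (3.68), FTH1P3 (3.66) and DCAF13P3 in AP4E1 (3.34). FTH1P3, a copy of the ferritin heavy chain gene, averaged 30.6 ± 6.25 normalised reads with indisulam, 186 ± 100 with pladienolide B and 12.7 ± 9.04 in DMSO (SD, n = 3 each). It rose with pladienolide B (3.94 ± 0.52, limma adjusted p = 1.25e-05), and its change with indisulam, 1.48 ± 0.52, did not pass (adjusted p = 0.0507). TYRO3P and DCAF13P3 are among the 4 features with a DMSO mean under 10, so their calls are not printed, though the counts above include them. TYRO3P averaged 5.23 ± 4.56 normalised reads with indisulam, 38.5 ± 13.1 with pladienolide B and 1.65 ± 2.86 in DMSO. DCAF13P3 averaged 6.49 ± 6.24 with indisulam, 44.4 ± 14.2 with pladienolide B and 4.93 ± 3.24 in DMSO, so that their ratios rest on few reads. CHORDC1P4 rose with indisulam (0.94 ± 0.17, adjusted p = 0.00124), and it gave −0.27 ± 0.17 with pladienolide B (adjusted p = 0.18).

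At the other end, DPY19L1P2 in AVL9 (ratio −1.09), HNRNPA1P33 in LINC00842 (−0.83) and ZSCAN12P1 in ZSCAN16-AS1 (−0.70) had the lowest ratio differences with indisulam. HNRNPA1P33 fell there (log2 change −1.25 ± 0.17, adjusted p = 0.000173). SMG1P5 in MAPK3 (−0.87), FAM133CP in BICC1 (−0.55) and RALGAPA1P1 in FSD1L (−0.45) had the lowest with pladienolide B. The pairs with the highest feature means had these ratio differences with indisulam: PDIA3P1 in CHD1L 0.26, SUMO1P3 in COPA 0.92, ZNF271P in ZNF397 −0.37, ST13P4 in DLEU1 0.48 and RP9P in AVL9 0.51. SUMO1P3, which rose with pladienolide B (0.66 ± 0.07, adjusted p = 9.72e-07), lies on the strand opposite to COPA, unlike the members in their hosts.

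The library kit was stranded but the strand setting of the counting is not given, and reads from a host's intron on the feature's own strand cannot be separated from reads of the feature in these values. Coverage of the rest of each intron is not in the values used here, so whether the reads stop at the ends of the feature was not tested.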

How the data were processed

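Poly(A)-selected RNA from MDA-MB-231 cells was sequenced in 9 libraries, 3 for each of indisulam, pladienolide B and DMSO. The build hg38 and the tools STAR 2.7.5a, DESeq2, SAMtools, Picard and FastQC are listed, without their roles, in the submitters' processing notes. In the sources used here the program that counted reads, and its strand setting, are not given. Values deposited by the authors are a signal: counts per feature after division by size factors of DESeq2, per the labels and the table's name. In all 9 columns 100% of values divided into whole reads, within 0.01.

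Features with a mean of at least 10 were tested with limma 3.58.1 in R 4.3.3, applied to log2(value + 1) with all 9 libraries in 1 fit and trended variances. Tests were two-sided, and p-values were adjusted by Benjamini-Hochberg over 16846 features at 0.05. Changes on this scale are understated for low genes. A feature over host ratio is the difference of the log2(value + 1) values. Intervals of pooled read ratios are exact at 95% for counting error alone. The fit was tested on simulated data. edgeR 4.0.16 and DESeq2 1.42.0 on recovered reads, other scalings, filters, pseudocounts, a replicate block and left-out libraries were alternatives. Averaged over the features tested, no replicates agreed within sampling noise (lowest chi-square per feature 8.63).

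Intron positions, strands, biotypes and sequences came from GENCODE v29; of 25854 features with a symbol, 23951 matched it. CHP1P2 was matched by its Ensembl identifier. Pseudogenes were aligned with blastn 2.17.0. Tests planned for the hosts are given without p-values, because the hosts belong to the pairs chosen on these data. The members, the lists and the rule for named genes were chosen with earlier results of these data known. Named were the members, their parents, every feature inside a host, the 3 features most like each pseudogene, and of the other pairs the 5 with the highest feature mean and, for each drug, the 3 with the highest and the 3 with the lowest ratio difference.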

Additional observations from a re-analysis of the deposited data

How the results depend on the processing

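Hosts, parents, counts of calls and the other named features that passed the test were recomputed, where they stayed in the fit, with TMM scaling, equal library totals, pseudocounts of 0.5 and 5, no filter, a mean of at least 50, edgeR, DESeq2, a replicate block and each library left out. The pseudogene features and their ratios, which carry no test, were recomputed with the scalings, the pseudocounts and left-out libraries alone. Named features outside the members that did not pass, such as FTH1P3 with indisulam, were not recomputed. BCR between pladienolide B and indisulam turned to −0.031 with TMM, −0.39 with equal totals and −0.0019 with edgeR. TBC1D9 with indisulam gave 0.25 with TMM, 0.24 with equal totals and 0.25 with edgeR. FBXW4 with pladienolide B lost its call with TMM (0.17), no filter (0.28) and edgeR (0.21) and turned to −0.19 with equal totals. CHP1 with pladienolide B gave 0.11 with equal totals (adjusted p = 0.0803). With a pseudocount of 5, TNRC18P1 differed from DMSO by 1.54 with indisulam and 5.30 with pladienolide B, and its ratio to TBC1D9 by 1.24 and 5.88. CHP1P2 with pladienolide B gave 0.84 with equal totals. Per kb of host span rather than exon, the ratio to the host was 82.1% with indisulam, 1673% with pladienolide B and 20.1% in DMSO for FBXW4P1, 30.9%, 952% and 5.40% for TNRC18P1, and 58.2%, 19.7% and 13.3% for CHP1P2.

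With equal totals 2733 features were called higher and 9086 lower with pladienolide B against DMSO, and 3013 higher against indisulam, where 5776, 5976 and 5842 were called as deposited. Among the other pairs with indisulam, the replicate block gave 8 features higher and 11 hosts lower. TMM, equal totals and edgeR each gave 2 hosts higher there. Pairs on 1 strand alone gave 2 features higher, 2 lower and 4 hosts lower with indisulam, and 11 features higher, 0 lower and 9 hosts lower with pladienolide B. These 11 include the 4 features with a DMSO mean under 10. With pladienolide B, a mean of at least 50 left 10 features higher, equal totals gave 5 features lower and 3 hosts higher, and no filter, which admits more pairs, gave 14 hosts higher and 25 lower.

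Leaving out 1 library at a time gave −0.039 to 0.11 for BCR between the drugs, 0.23 to 0.36 for TBC1D9 with indisulam, −0.14 to 0.0052 for FBXW4 with indisulam and 0.16 to 0.40 with pladienolide B, and −0.017 to 0.0079 for CHP1 with indisulam. Features called higher with indisulam numbered 1565 to 2982, the fewest without indisulam replicate 3 and 1620 without DMSO replicate 2. Among the other pairs with indisulam, 2 to 7 features were higher, 3 to 5 lower and 1 to 5 hosts higher. With pladienolide B 1 to 2 features were lower. 

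The main fit left the replicate numbers out. The deviations of libraries with the same number correlated weakly, at 0.0027 to 0.128, yet 16 of 18 comparisons placed a library closest to its own number. A shared replicate effect is therefore not excluded, and the main standard errors do not allow for it. For indisulam against DMSO the block gave an SE of 0.040 for IGF2R in place of 0.064, and of 0.062 for TBC1D9 in place of 0.090. With the replicate block BCR gave −0.34 and IGF2R −0.39 with indisulam, no parent changed its call, and GSHG0037378 lost both of its calls (adjusted p = 0.0515 with indisulam against DMSO and 0.0543 for pladienolide B against indisulam). Among other pairs, DPY19L1P2 and SUMO1P3 lost a call with indisulam under some alternative. The same held for RP9P with either drug and for ST13P4 with pladienolide B. SUMO1P3 kept its call with pladienolide B throughout. The cause of these shifts was not tested. In DMSO, TNRC18P1 had 9 reads in all, which limits the precision of its differences.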

Other observations

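The 3 pseudogene features can be set beside features without a symbol that lie inside the deposited span of a host. These overlap no exon of a gene outside the pseudogene class, and their place in an annotated intron was not checked. This set was added after the data were seen. Of 6996 such features, 749 had a mean of at least 10. With indisulam 151 rose and 11 fell, with a median log2 change of 0.36 against 0.05 over all features tested. With pladienolide B 347 rose and 125 fell, with a median of 0.66 against −0.01. Over all features tested 14.5% rose with indisulam and 34.3% with pladienolide B. FBXW4P1, TNRC18P1 and CHP1P2 stood at 1.83, 2.38 and 1.79 with indisulam and at 6.21, 6.44 and 1.30 with pladienolide B. Of the 749 features, 168 had a DMSO mean under 10 and so passed the minimum through treated libraries, which by itself raises the counts of features that rose.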
